A study of Mus musculus with 12 samples.

Results

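The genes described here are 45 genes of the p53 pathway and of the response to DNA damage, read from lung RNA of smoke-exposed mice with and without a Rora mutation. They were taken by gene name from the array annotation. Of the 45, 43 had at least 1 probe that the scanner flagged as well above background on 4 or more of the 12 arrays, out of 19824 such genes in all. These 43 genes were covered by 71 of the 76 probes that carry a member's name. Cdkn2a, the locus of the tumour suppressors p16 and p19Arf, had 1 probe, which was well above background on 0 of 12 arrays (levels -8.43 to -7.01). Atr was not analysed here. All 43 measured members were read on every array, apart from Mdm4 on WT room air replicate 3, where its value was missing and the fit used the other 3 arrays of that group.

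Lung RNA of 12 mice was measured on single-colour arrays, 4 mice in each of 3 groups: wild type (WT) C57Bl/6 in room air, WT C57Bl/6 in cigarette smoke, and Rora mutants of the same background in cigarette smoke. The labels give whole lung, male sex and an age of 12 weeks for every mouse, and a smoke protocol of 4 months at 5 days a week. That protocol is longer than 12 weeks, so the age cannot be that at its end. The allele of the Rora mutants is not stated in the sources used here, and no room-air group of the mutants was analysed here, so an effect of genotype cannot be told apart from a genotype-by-smoke interaction. The product of Rora is a nuclear receptor of AGGTCA-type elements in DNA. The question behind the comparisons was how smoke and the Rora mutation go with genes of DNA damage in the lung.

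A level below is the log2 signal of a gene's brightest kept probe minus the log2 75th percentile of its array. A difference is between group means of that level, with its standard error (SE). A gene was called where its Benjamini-Hochberg adjusted p over all 19824 genes was under 0.05 in limma, a linear model with moderated variances fitted to all 12 arrays. Levels of different genes come from different probes and are not set against each other.

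The label of the mutants held in the data: mean Rora was 1.19 ± 0.041 (SD, n = 4) for WT mice in room air, 1.27 ± 0.037 for WT mice in smoke and -0.92 ± 0.094 for mutants, a difference of -2.19 between mutant and WT smoke (limma adjusted p = 9.89e-10). The sex label did not hold for the room-air group. Xist, which coats the inactive X chromosome of females, had a mean of 4.13 ± 0.067 there, against -5.30 ± 2.09 in the WT and -4.51 ± 1.26 in the mutant smoke group. Of 4 genes of the Y chromosome, Ddx3y, Kdm5d and Uty passed the background flag on 0 of 4 room-air arrays and Eif2s3y on 2 of 4, and all passed it on every array of both smoke groups. Both comparisons with room air therefore also hold a sex-linked difference that cannot be told apart from the exposure. That is not so for mutant against WT smoke. Of the 43 members 0 lie on the X or Y chromosome, and whether sex alters members on other chromosomes was not tested. Over the arrays 70.1% to 74.8% of spots were flagged as well above background, and markers of lung epithelium such as Sftpc were well above background on 12 of 12.

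The protein p53 is a transcription factor that MDM2 keeps at a low level by marking it for degradation. Breaks and stalled replication forks activate the kinases ATM, ATR, CHK1 and CHK2, which stabilise p53, largely without a change in its own RNA. The stabilised protein then raises RNA of genes that halt the cell cycle (Cdkn1a, the Gadd45 genes, Ccng1, Btg2), drive apoptosis (Bax, Bbc3, Pmaip1, Fas, Perp), counter oxidative stress (Sesn1, Sesn2) or repair DNA (Xpc, Ddb2, Rrm2b). Several of these genes, among them Gdf15, Gadd45b, Gadd45g and Plk3, also respond to stress, cytokine or growth factor signals that do not need p53.

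The promoters of Gdf15, Gadd45g and Cdkn1a are shown because these were the members with the largest differences. Each runs from 250 bases before to 50 bases after the RefSeq gene start (build GRCm38.p6, 5′ to 3′ on the gene's strand), with the matches to 7 searched motifs in capitals. Gdf15 lies at chr8:70632407-70632706 on the minus strand, Gadd45g at chr13:51846425-51846724 on the plus strand and Cdkn1a at chr17:29090729-29091028 on the plus strand.

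Gdf15: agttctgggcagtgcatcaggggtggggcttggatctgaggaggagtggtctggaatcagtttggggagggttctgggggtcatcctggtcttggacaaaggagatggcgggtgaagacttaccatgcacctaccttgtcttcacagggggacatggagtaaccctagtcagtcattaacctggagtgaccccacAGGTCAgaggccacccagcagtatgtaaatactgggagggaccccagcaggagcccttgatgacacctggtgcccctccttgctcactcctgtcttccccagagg
Gadd45g: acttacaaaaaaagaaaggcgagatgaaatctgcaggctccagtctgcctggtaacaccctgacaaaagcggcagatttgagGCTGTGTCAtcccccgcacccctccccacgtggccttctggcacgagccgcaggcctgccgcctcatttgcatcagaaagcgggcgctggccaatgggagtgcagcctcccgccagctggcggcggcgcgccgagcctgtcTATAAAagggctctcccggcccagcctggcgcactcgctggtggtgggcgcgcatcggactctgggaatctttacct
Cdkn1a: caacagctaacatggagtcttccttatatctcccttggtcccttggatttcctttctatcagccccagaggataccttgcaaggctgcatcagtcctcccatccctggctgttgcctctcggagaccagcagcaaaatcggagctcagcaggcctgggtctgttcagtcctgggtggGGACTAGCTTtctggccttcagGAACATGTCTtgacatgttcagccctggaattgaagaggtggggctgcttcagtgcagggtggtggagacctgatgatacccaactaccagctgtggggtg

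The motifs, searched on both strands in 27025 mouse promoters of this length and in the 33 of the 43 members that the table holds, were a single repeat of the p53 response element consensus, the ROR core AGGTCA, the AP-1 site TGANTCA, the CRE TGACGTCA, the ATF4 composite TGATGNAAT, the antioxidant core TGACNNNGC and the TATA box TATAAA. The Cdkn1a window held 2 matches to the p53 repeat, starting at positions -73 and -51 relative to the gene start, and 7 members held at least 1 (Bax, Ccng1, Cdkn1a, Ei24, Gadd45a, Mdm2 and Trp53) against 8.34% of all promoters. The Gdf15 window held the ROR core at position -55, as did 4 members in all (Btg2, Chek2, Gdf15 and Xrcc1) against 16% of all promoters. The Gadd45g window held the antioxidant core on the reverse strand at -168 and a TATA box at -27. The other shares of all promoters were 7.92% for AP-1 (1 member, Fas), 1.85% for the CRE (4 members), 0.973% for the ATF4 composite (0 members), 12.4% for the antioxidant core (5 members) and 14.2% for the TATA box (5 members). A match is a run of letters in this window and was not tested as a binding site. The gene start used is the outermost one in RefSeq, and whether the transcript read by a probe starts there was not tested.

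Where members of the pathway were called, they were higher. In smoke-exposed WT lungs 4 of 43 members were called higher and 0 lower than in room air: Gdf15, Gadd45g, Plk3 and Psrc1 (9.3% of members; 4.83% of all genes were called in this comparison). In smoke-exposed Rora mutants 3 were higher and 0 lower than in smoke-exposed WT: Cdkn1a, Gadd45g and Fas (6.98% of members; 6.16% of all genes). Against WT room air, 11 members were higher and 0 lower in mutant smoke (25.6% of members; 16.8% of all genes): Gdf15, Gadd45g, Cdkn1a, Gadd45b, Plk3, Fas, Perp, Pmaip1, Zmat3, Ccng1 and Psrc1. The shares of members called lie near those of all genes in the comparison of the smoke groups and above them in the other comparisons. These shares are not a test of the pathway, because the members were chosen with earlier results of these data known. Of all genes, 2.37%, 2.66% and 7.27% were called higher and 2.46%, 3.5% and 9.52% lower in the 3 comparisons.

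Most members lay within 0.2 log2 units of 0, a count that was not made for all genes. The difference was under 0.2 log2 units in either direction for 33 of 43 members in WT smoke against room air, 34 in mutant against WT smoke and 29 in mutant smoke against room air. The median member differed by 0.067, 0.069 and 0.096 log2 units, beside medians of -0.0068, 0.0086 and 0.0039 over all genes. Above 0 were 32, 32 and 35 of the 43 members, beside 48.0%, 52.7% and 50.9% of all genes. The 4 arrays of one group lay wholly above those of the other for 7 members (6.2% of all genes did so), 5 members (6.93%) and 14 members (10.2%), and wholly below for 0 members in each comparison (6.59%, 6.63% and 11% of all genes). These 3 comparisons share groups, so their counts are not independent of each other. With a normexp background correction of the raw spot signal the calls fell to 0, 0 and 3 members, and those of all genes to 40 higher and 13 lower, 11 and 15, and 77 and 82. With the mean over all kept probes of a gene, 10 members were higher and 2 lower in mutant smoke against room air. Of all genes, 1373 were then called higher and 1991 lower. The 2 lower members are Trp53 and Mre11a, described below.

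**Figure D1:**
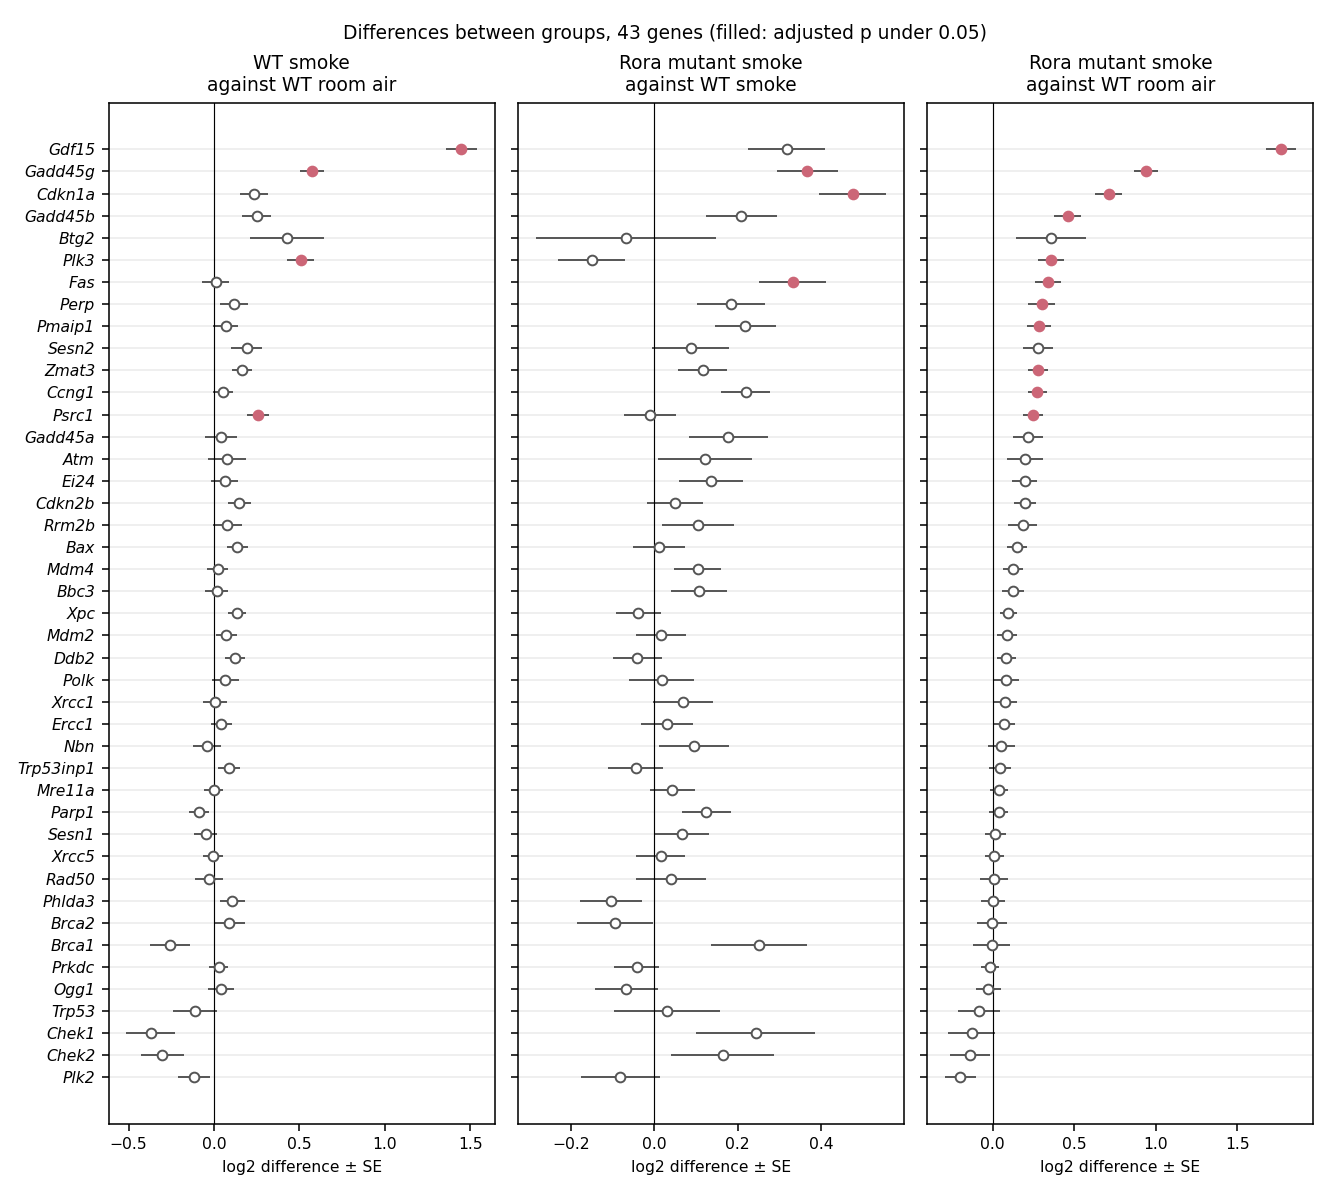
Difference in level (log2 units, horizontal axis) with its SE for each of the 43 measured genes (vertical axis, ordered by mutant smoke against room air) in the 3 comparisons, from n = 4 arrays a group; filled points had an adjusted p under 0.05. The filled points, 4, 3 and 11 of them, all lie to the right of 0, and Gdf15 lies farthest to the right in both comparisons with room air; the horizontal scales differ between panels.

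Gdf15, a secreted stress cytokine of the TGF-beta superfamily, differed most. Its probe (chromosome 8, 73558561 to 73558620, build mm8) read -2.27, -2.27, -2.34 and -2.36 on the WT room air arrays, -0.87, -0.70, -0.76 and -1.11 on the WT smoke arrays and -0.53, -0.42, -0.74 and -0.48 on the mutant smoke arrays. All 8 smoke arrays lay above all 4 room-air arrays, and the lowest mutant overlapped the highest WT smoke array. WT smoke exceeded room air by 1.45 ± 0.092 log2 units (SE), a 2.73-fold rise (limma adjusted p = 5.79e-06). Mutant smoke exceeded room air by 1.77 ± 0.092, a 3.40-fold rise (adjusted p = 6.9e-07). Between the smoke groups the difference of 0.32 ± 0.092 (SE, adjusted p = 0.0665) missed the threshold, with a 95% interval of 0.12 to 0.52.

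The Gadd45 genes encode small stress sensors that bind cell cycle and signalling proteins. Gadd45g (chromosome 13, 51860860 to 51860919, mm8) was the only member called in all 3 comparisons. It read 3.03, 3.13, 2.96 and 3.11 on the WT room air arrays, 3.69, 3.53, 3.67 and 3.64 on the WT smoke arrays and 3.92, 4.13, 3.85 and 4.10 on the mutant smoke arrays. The 3 groups did not overlap, with room air lowest and the mutants highest. WT smoke was higher than room air by 0.57 ± 0.073 (SE, adjusted p = 0.000972), a 1.49-fold rise, and the mutants were higher than WT smoke by 0.37 ± 0.073 (SE, adjusted p = 0.0152), a 1.29-fold rise. Mutant smoke against room air gave 1.92-fold (adjusted p = 1.59e-05).

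Gadd45b, the family member most tied to cytokine and TGF-beta signals, read 2.68, 2.61, 2.34 and 2.44 on the WT room air arrays, 2.56, 2.81, 2.86 and 2.85 on the WT smoke arrays and 2.98, 2.99, 2.92 and 3.01 on the mutant smoke arrays. The mutant arrays lay close together and above every other array, while the WT groups overlapped. Mutant smoke exceeded room air by 0.46 ± 0.085 (SE, adjusted p = 0.00411), a 1.38-fold rise. Its steps of 0.25 ± 0.085 (SE, adjusted p = 0.129) from room air to WT smoke and 0.21 ± 0.085 (SE, adjusted p = 0.18) from WT smoke to the mutants missed the threshold. Its other kept probe differed by only 0.081 between mutant smoke and room air, so the size rests on the brightest probe. Without WT smoke replicate 1, the lowest of its group, WT smoke against room air became 0.32 and passed (adjusted p = 0.0486).

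Gadd45a, the member of this family most directly bound by p53, read 0.48, 0.36, 0.45 and 0.42 on the WT room air arrays, 0.38, 0.42, 0.58 and 0.49 on the WT smoke arrays and 0.46, 0.46, 0.86 and 0.81 on the mutant smoke arrays. Mutant replicates 3 and 4 lay above all other arrays and mutant replicates 1 and 2 among the WT arrays. No comparison passed: the differences were 0.040 ± 0.094 (SE, adjusted p = 0.877), 0.18 ± 0.094 (SE, adjusted p = 0.311) and 0.22 ± 0.094 (SE, adjusted p = 0.142) for WT smoke against room air, mutant against WT smoke and mutant smoke against room air.

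Cdkn1a encodes p21, the inhibitor of cyclin-dependent kinases through which p53 halts the cell cycle. Its probe (chromosome 17, 28828096 to 28828155, mm8) read -0.57, -0.62, -0.73 and -0.62 on the WT room air arrays, -0.48, -0.46, -0.34 and -0.33 on the WT smoke arrays and -0.011, 0.076, -0.076 and 0.31 on the mutant smoke arrays. The groups did not overlap, in the order room air, WT smoke, mutant smoke. The mutants were higher than WT smoke by 0.48 ± 0.081 (SE, adjusted p = 0.00707), a 1.39-fold rise. Against room air the mutants were 1.64-fold higher (adjusted p = 0.000235). WT smoke against room air gave 0.23 ± 0.081 (SE, adjusted p = 0.134), which missed the threshold although the arrays did not overlap, with a 95% interval of 0.058 to 0.41.

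Plk3, a polo-like kinase of stress responses, read 0.050, 0.074, 0.23 and 0.0046 on the WT room air arrays, 0.39, 0.69, 0.76 and 0.55 on the WT smoke arrays and 0.38, 0.43, 0.47 and 0.50 on the mutant smoke arrays. Every smoke array lay above every room-air array, and the mutants lay within the range of WT smoke apart from 1 array just below it. WT smoke exceeded room air by 0.51 ± 0.080 (SE, adjusted p = 0.00402), and mutant smoke exceeded room air by 0.36 ± 0.080 (SE, adjusted p = 0.0114). The mutants stood -0.15 ± 0.080 (SE, adjusted p = 0.315) from WT smoke, which did not pass. Its relative Plk2 gave -0.12, -0.081 and -0.20 in the 3 comparisons and passed in 0 of them.

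Psrc1, a microtubule and spindle protein known as p53-inducible in mouse cells, read -1.60, -1.66, -1.74 and -1.57 on the WT room air arrays, -1.46, -1.44, -1.37 and -1.27 on the WT smoke arrays and -1.30, -1.36, -1.41 and -1.5 on the mutant smoke arrays. The smoke groups overlapped each other and lay above room air. WT smoke against room air gave 0.26 ± 0.063 (SE, adjusted p = 0.0389) and mutant smoke against room air 0.25 ± 0.063 (SE, adjusted p = 0.0195). The smoke call was fragile: it ended, with adjusted p of 0.0547 to 0.1, on leaving out any of WT room air replicates 1 to 4 or any of WT smoke replicates 2, 3 and 4, with values of 0.22 to 0.28. The call against room air in the mutants ended without WT room air replicate 3 (0.22, adjusted p = 0.0537) or mutant replicate 1 (0.22, adjusted p = 0.0553). With the mean of its 3 kept probes Psrc1 also lost the call in WT smoke against room air. Mutant smoke against room air kept its call there (0.25, limma adjusted p = 0.0341).

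Ccng1, cyclin G1, which recruits a phosphatase to MDM2, read 0.67, 0.83, 0.72 and 0.81 on the WT room air arrays, 0.87, 0.82, 0.76 and 0.79 on the WT smoke arrays and 1.06, 0.91, 1.04 and 1.12 on the mutant smoke arrays. All mutant arrays lay above all WT arrays, and the WT groups overlapped. The mutants exceeded room air by 0.27 ± 0.059 (SE, adjusted p = 0.00928). Against WT smoke their difference of 0.22 ± 0.059 (SE, adjusted p = 0.0506) fell just short of the threshold, and it passed without mutant replicate 2, the lowest of its group (0.26, adjusted p = 0.0286). Zmat3, a zinc finger RNA-binding protein induced by p53, read -0.29, -0.088, -0.20 and -0.26 on the WT room air arrays, -0.059, -0.016, -0.015 and -0.10 on the WT smoke arrays and 0.024, -0.016, 0.11 and 0.16 on the mutant smoke arrays. The mutants lay above room air without overlap, and mutant smoke exceeded room air by 0.28 ± 0.059 (SE, adjusted p = 0.00835). Its steps to WT smoke (0.16) and from there to the mutants (0.12) did not pass.

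**Figure D2:**
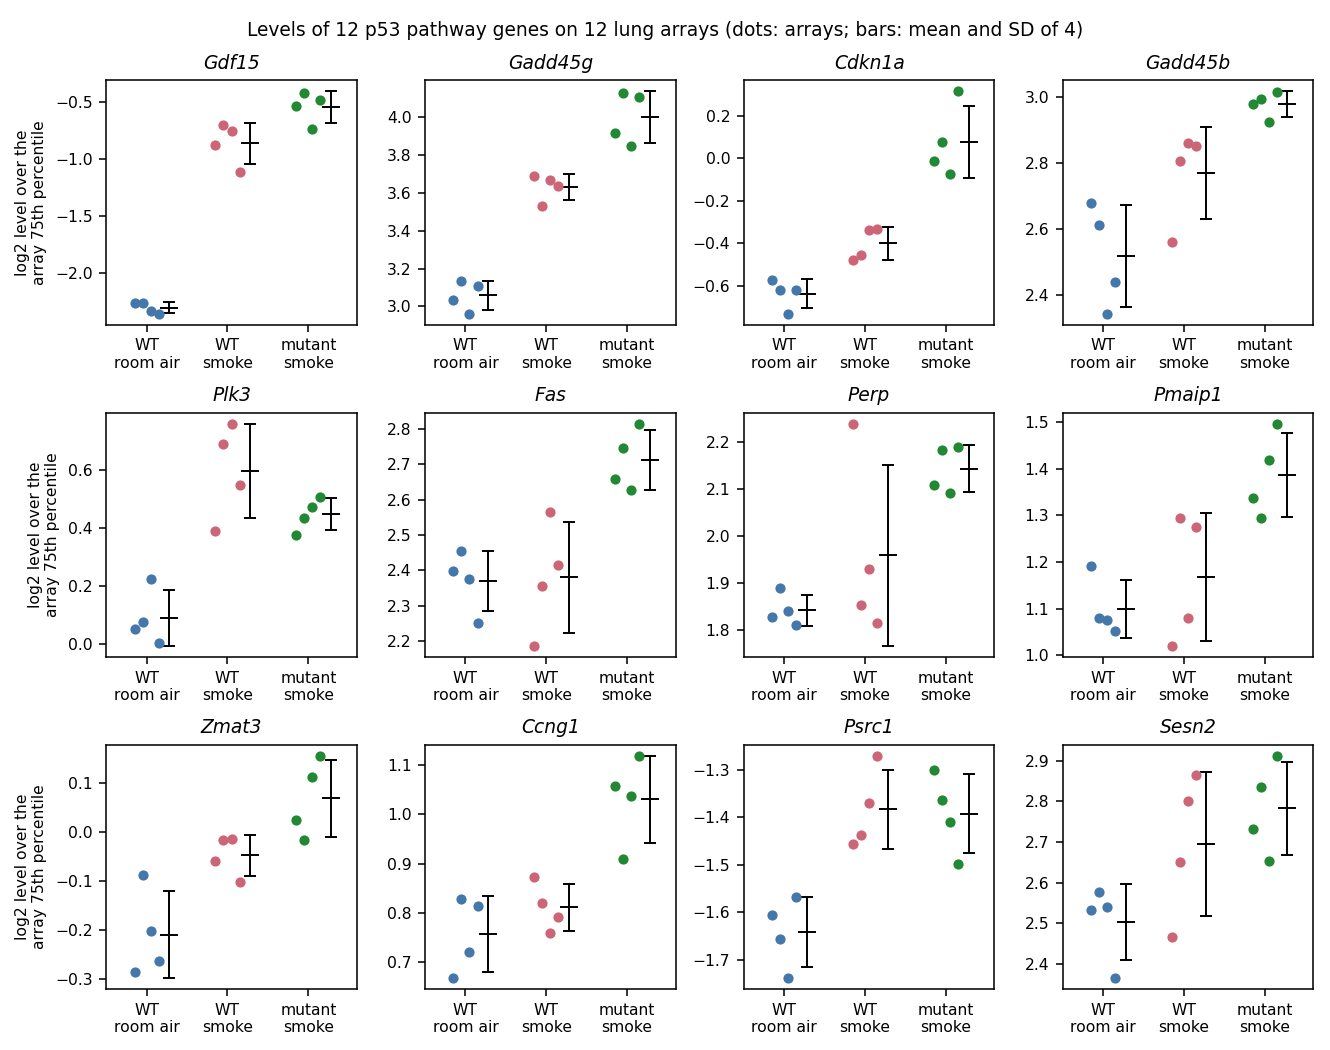
Level of 12 genes (log2 units over the 75th percentile of the array, vertical axes, whose ranges differ) on each of the 12 arrays by group, with the mean and SD of 4 beside the dots: the 11 genes called in a comparison and Sesn2, which completes the 12 with the smallest p over the 3 groups. In Gadd45g and Cdkn1a the 3 groups do not overlap, in Gdf15 room air stands apart, and in Fas and Ccng1 the mutants do.

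Sesn2, a sestrin that restrains mTOR and peroxides and answers both p53 and ATF4, read 2.53, 2.58, 2.54 and 2.36 on the WT room air arrays, 2.47, 2.65, 2.80 and 2.87 on the WT smoke arrays and 2.73, 2.84, 2.65 and 2.91 on the mutant smoke arrays. The mutants lay above room air and overlapped WT smoke. Mutant smoke against room air gave 0.28 ± 0.091 (SE, adjusted p = 0.0577), short of the threshold, and passed without mutant replicate 3 (0.32, adjusted p = 0.046). The mean of its 2 kept probes gave only 0.092 and did not pass, so the size rests on the brightest probe. Sesn1 differed by -0.048, 0.066 and 0.018. Btg2, an antiproliferative immediate target of p53, had the widest spread of any member: WT smoke ran from 1.92 to 3.17 against 1.96 to 2.13 in room air. Its smoke difference of 0.43 ± 0.22 (SE, adjusted p = 0.328) lay within that spread. Cdkn2b, the p15 inhibitor beside Cdkn2a, gave 0.20 ± 0.067 (SE, adjusted p = 0.067) in mutant smoke against room air.

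Among the apoptosis genes, the death receptor Fas differed between the smoke groups. Its brightest probe (chromosome 19, 34393409 to 34393468, mm8) read 2.40, 2.45, 2.37 and 2.25 on the WT room air arrays, 2.19, 2.35, 2.56 and 2.41 on the WT smoke arrays and 2.66, 2.75, 2.63 and 2.82 on the mutant smoke arrays. The mutants lay above all WT arrays, and WT smoke spanned the room-air range. The mutants exceeded WT smoke by 0.33 ± 0.081 (SE, adjusted p = 0.0348), a 1.26-fold rise, and room air by 0.34 ± 0.081 (SE, adjusted p = 0.0146). WT smoke and room air differed by 0.0097 (95% interval -0.17 to 0.19). The other kept probe of Fas, on chromosome 19 at 34375240 to 34375299, differed by 0.025 and -0.019 in the mutant comparisons, and the mean of both probes did not pass (0.18, adjusted p = 0.252, against WT smoke; 0.16, adjusted p = 0.225, against room air). The call against WT smoke also ended on leaving out WT smoke replicate 1, 2 or 4 or mutant replicate 1, 2 or 4, with values of 0.27 to 0.35 and adjusted p of 0.0586 to 0.0983.

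Perp, a desmosomal membrane protein that promotes apoptosis, read 1.83, 1.89, 1.84 and 1.81 on the WT room air arrays, 2.24, 1.85, 1.93 and 1.81 on the WT smoke arrays and 2.11, 2.18, 2.09 and 2.19 on the mutant smoke arrays. WT smoke replicate 1 stood above the mutants while the other 3 WT smoke arrays lay near room air. Mutant smoke exceeded room air by 0.30 ± 0.082 (SE, adjusted p = 0.0277), a call that ended (adjusted p of 0.0569 to 0.0733, values of 0.29 to 0.30) without WT room air replicate 1, 3 or 4 or mutant replicate 2 or 4. Mutant against WT smoke gave 0.18 ± 0.082 (SE, adjusted p = 0.222), and 0.28 (adjusted p = 0.0211) without WT smoke replicate 1. Pmaip1, which encodes the BH3-only protein NOXA, read 1.19, 1.08, 1.07 and 1.05 on the WT room air arrays, 1.02, 1.29, 1.08 and 1.28 on the WT smoke arrays and 1.34, 1.29, 1.42 and 1.5 on the mutant smoke arrays. The mutants did not overlap room air, and mutant smoke exceeded room air by 0.29 ± 0.074 (SE, adjusted p = 0.0215). That call ended (adjusted p of 0.0502 to 0.0651, values of 0.25 to 0.28) without WT room air replicate 2, 3 or 4 or mutant replicate 4.

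Bax, the effector that permeabilises mitochondria, read 1.24, 1.46, 1.45 and 1.49 on the WT room air arrays, 1.51, 1.55, 1.55 and 1.58 on the WT smoke arrays and 1.64, 1.58, 1.47 and 1.54 on the mutant smoke arrays. WT room air replicate 1 stood below the other 3, which bordered the smoke arrays. The differences of 0.14 ± 0.062 (SE, adjusted p = 0.266), 0.012 ± 0.062 (SE, adjusted p = 0.943) and 0.15 ± 0.062 (SE, adjusted p = 0.125) did not pass. Bbc3, the BH3-only protein PUMA, gave 0.015, 0.11 and 0.12 and passed in 0 comparisons. The other proapoptotic or growth-restraining targets, Ei24, Trp53inp1 and Phlda3, differed by -0.10 to 0.20 and passed in none of the 3.

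By their brightest probes, RNA of p53 itself and of its regulators was not called. The brightest probe of Trp53 (chromosome 11, 69396652 to 69396710, mm8) read -0.55, -0.69, -0.73 and -0.45 on the WT room air arrays, -0.53, -1.10, -0.65 and -0.57 on the WT smoke arrays and -0.48, -0.73, -0.65 and -0.88 on the mutant smoke arrays. The 3 groups overlapped, and the differences were -0.11 ± 0.13 (SE, adjusted p = 0.716), 0.030 ± 0.13 (SE, adjusted p = 0.929) and -0.081 ± 0.13 (SE, adjusted p = 0.711). The other kept probe of Trp53 (chromosome 11, 69405827 to 69405886, on the same transcript accession) went another way. Its mean level was -1.25 ± 0.14 (SD, n = 4) for room air, -1.33 ± 0.17 for WT smoke and -1.94 ± 0.17 for mutants. Mutants were lower than WT smoke there by -0.62 ± 0.11 (SE, adjusted p over all kept probes = 0.00886) and lower than room air by -0.69 ± 0.11 (SE, adjusted p over all kept probes = 0.0017). The mean of both probes gave -0.39 in mutant smoke against room air (adjusted p = 0.01) and -0.29 against WT smoke (adjusted p = 0.0646). Whether Trp53 RNA was lower in the mutants therefore depended on the probe, and which probe reads the gene better was not tested.

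Mdm2, the ubiquitin ligase that p53 induces and that degrades p53, read 1.73, 1.58, 1.48 and 1.51 on the WT room air arrays, 1.59, 1.64, 1.74 and 1.62 on the WT smoke arrays and 1.63, 1.65, 1.70 and 1.69 on the mutant smoke arrays. The groups overlapped, and the differences were 0.072 ± 0.060 (SE, adjusted p = 0.597), 0.017 ± 0.060 (SE, adjusted p = 0.915) and 0.089 ± 0.060 (SE, adjusted p = 0.353). The 95% interval of the last was -0.044 to 0.22. Mdm4, the relative of MDM2 that masks p53, gave 0.021, 0.10 and 0.12 by its brightest probe. Of its 4 other kept probes, 1 (chromosome 1, 134818369 to 134818428) was lower in mutant smoke than in room air by -0.73 ± 0.16 (SE, adjusted p over all kept probes = 0.0118), and the other 3 did not pass.

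**Figure D3:**
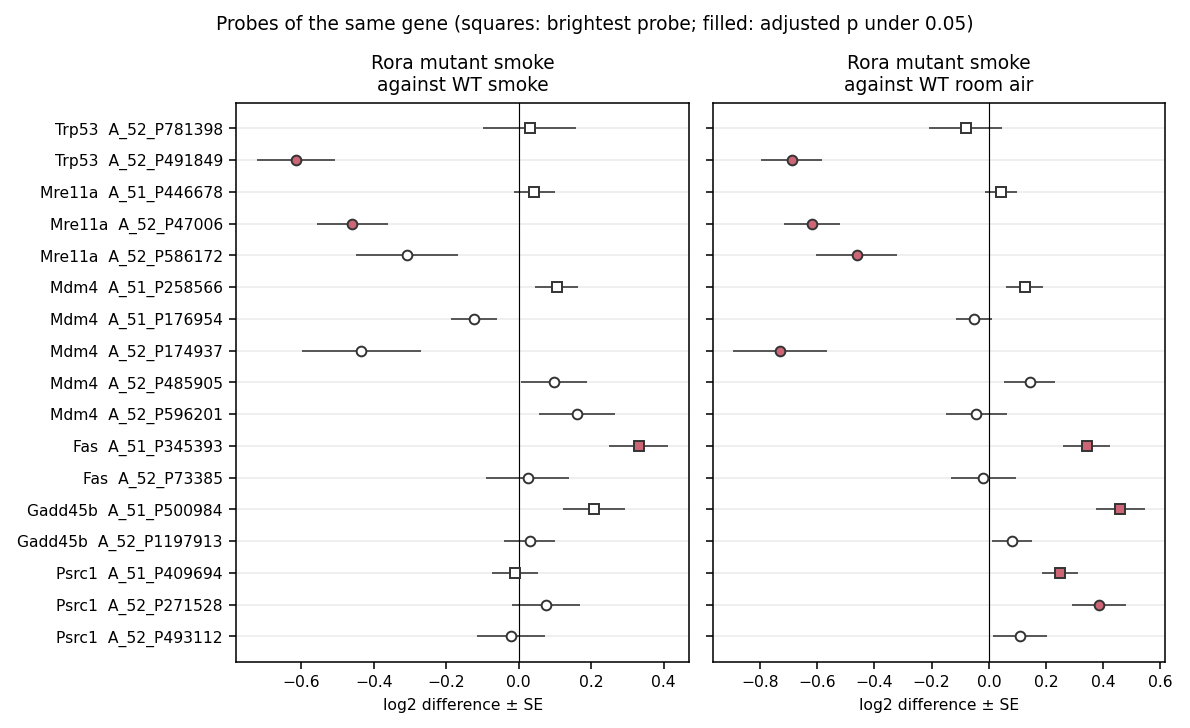
Difference in level (log2 units, horizontal axes) with its SE for each kept probe of 6 genes whose probes did not give the same call (n = 4 arrays a group); squares are the brightest probe of a gene, and filled points had an adjusted p under 0.05 over all kept probes. The non-representative probes of Trp53, Mre11a and Mdm4 that passed lie left of 0, at -0.46 to -0.73, while the brightest probes of these genes lie between -0.081 and 0.12; the genes were picked for this display after their values were seen.

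By the brightest probe of each gene, no kinase of the damage response and no repair gene outside the p53 targets was called in any comparison. Mre11a was called lower in mutant smoke against room air by the mean of its kept probes, as given below. These are 14 measured members: the kinases Atm, Chek1, Chek2 and Prkdc, the break and nick repair genes Brca1, Brca2, Mre11a (now Mre11), Rad50, Nbn, Xrcc5, Xrcc1 and Parp1, and the excision repair genes Ercc1 and Ogg1. In limma 0 of 14 passed in each comparison, their medians were -0.0033, 0.056 and 0.011 log2 units, and the widest 95% interval reached 0.31 to either side. The largest differences were -0.37 (Chek1, WT smoke against room air), 0.25 (Brca1, mutant against WT smoke) and 0.20 (Atm, mutant smoke against room air). At an unadjusted p under 0.05 were Chek1, Chek2 and Brca1, all 3 in WT smoke against room air with lower levels in smoke, and 0 of the 14 in the other comparisons; 18.5%, 21.5% and 31% of all genes had such a p.

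Atm, the kinase that answers breaks, read -2.36, -2.21, -2.02 and -2.10 on the WT room air arrays, -1.93, -2.14, -2.08 and -2.23 on the WT smoke arrays and -2.09, -2.22, -1.73 and -1.86 on the mutant smoke arrays. The groups overlapped, with mutant replicates 3 and 4 highest, and the differences were 0.076 ± 0.11 (SE, adjusted p = 0.792), 0.12 ± 0.11 (SE, adjusted p = 0.589) and 0.20 ± 0.11 (SE, adjusted p = 0.258). Chek1, the kinase of stalled forks, read -5.09, -4.83, -4.45 and -4.59 on the WT room air arrays, -5.13, -5.29, -5.11 and -4.93 on the WT smoke arrays and -4.75, -4.73, -4.80 and -5.19 on the mutant smoke arrays. Of the WT smoke arrays 3 lay below the room-air range and 1 within it, and the difference of -0.37 ± 0.14 (SE, adjusted p = 0.186) did not pass. Mutant against WT smoke gave 0.24 ± 0.14 (SE, adjusted p = 0.365) and mutant smoke against room air -0.13 ± 0.14 (SE, adjusted p = 0.591). Chek2, the kinase downstream of ATM, gave -0.30 ± 0.12 (SE, adjusted p = 0.216) in WT smoke against room air; without WT room air replicate 1, the lowest of its group, it was -0.43 and passed (adjusted p = 0.0404).

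Parp1, which marks DNA nicks with poly(ADP-ribose), read 0.33, 0.20, 0.22 and 0.22 on the WT room air arrays, 0.091, 0.24, 0.098 and 0.19 on the WT smoke arrays and 0.25, 0.37, 0.19 and 0.32 on the mutant smoke arrays. The groups overlapped, and the differences were -0.088 ± 0.058 (SE, adjusted p = 0.475), 0.12 ± 0.058 (SE, adjusted p = 0.243) and 0.037 ± 0.058 (SE, adjusted p = 0.715). Mre11a, Rad50 and Nbn form the complex that senses breaks. By their brightest probes they differed by -0.041 to 0.095 over the 3 comparisons. The other 2 kept probes of Mre11a gave lower values in the mutants: the probe at chromosome 9, 14585588 to 14585647, gave -0.46 ± 0.098 (SE, adjusted p over all kept probes = 0.0224) against WT smoke and -0.62 ± 0.098 (SE, adjusted p over all kept probes = 0.0019) against room air, and that at 14584718 to 14584777 gave -0.46 ± 0.14 (SE, adjusted p over all kept probes = 0.0433) against room air. The mean of the 3 probes was -0.35 against room air (adjusted p = 0.00762), so the absence of a call for this gene also rests on the choice of probe.

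**Figure D4:**
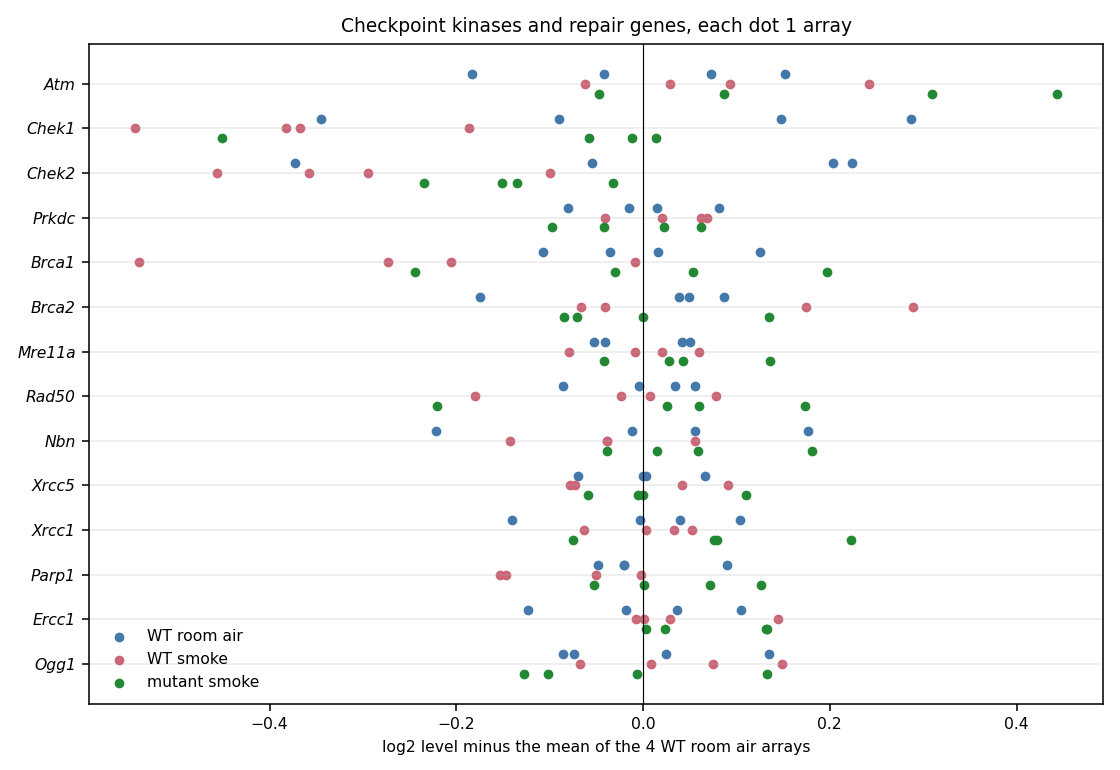
Level of the 4 kinases and 10 repair genes outside the p53 targets on each array, minus the mean of the WT room air arrays (log2 units, horizontal axis), with a row per gene and a colour per group; each dot is 1 array (n = 4 a group). Dots of the 3 groups overlap in every row, and Chek1, Chek2 and Brca1 have the WT smoke dots mostly left of 0. By these brightest probes 0 of the 14 genes passed in a comparison, while other probes of Mre11a passed.

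The repair genes that p53 can induce, Xpc and Ddb2 (which find lesions for nucleotide excision repair), Polk (a translesion polymerase) and Rrm2b (a ribonucleotide reductase subunit), were not called either. Xpc gave 0.13 ± 0.053 (SE, adjusted p = 0.202) and Ddb2 0.13 ± 0.059 (SE, adjusted p = 0.289) in WT smoke against room air, and Rrm2b 0.18 ± 0.086 (SE, adjusted p = 0.172) in mutant smoke against room air. 4 of the members lie on chromosome 9, which also holds Rora (probe at 69177968 to 69178027, mm8): Atm at -15.98 Mb, Ei24 at -32.6 Mb, Chek1 at -32.7 Mb and Mre11a at -54.6 Mb relative to that probe, and 0 of these 4 were called by their brightest probe.

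The arrays lay on 3 slides, each of which held all 3 groups. Differences can thus be read within a slide, there with a single array in at least 1 of the groups compared. The exception is Mdm4 against room air on slide 3, whose only room-air array lacks its value. Gdf15 exceeded its room-air level in WT smoke by 1.44, 1.36 and 1.58 on slides 1, 2 and 3. Cdkn1a was higher in the mutants than in WT smoke by 0.46, 0.47 and 0.45, and Gadd45g by 0.23, 0.54 and 0.31. Fas gave 0.47, 0.36 and 0.16 in the same comparison. Gadd45g, Plk3 and Psrc1 gave 0.62, 0.45 and 0.71, 0.36, 0.54 and 0.53 and 0.13, 0.30 and 0.37 in WT smoke against room air. Every member called in a comparison kept its direction on all 3 slides, and no such count over all genes is given here. The slides divide the same 12 arrays that gave the calls, so the kept direction is not independent support for them. With the slide as a block, 3, 3 and 12 members were called, with Psrc1 lost in WT smoke against room air. All-gene calls were then 373 higher and 329 lower, 402 and 501, and 1280 and 1683.

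Other genes of the same pathways were read from lists. Of 40 measured further p53 targets, 0 were called in WT smoke against room air and 0 in mutant against WT smoke, where 5 and 6 had an unadjusted p under 0.05. In mutant smoke against room air 3 were higher and 2 lower, among them the mTOR inhibitor Ddit4 (0.69 ± 0.17, SE; adjusted p = 0.0168), the death receptor Tnfrsf10b (0.41 ± 0.11), and the lower Tob1 (-0.37 ± 0.082) and Spata18 (-0.28 ± 0.067). Their medians were -0.023, 0.011 and 0.0048 log2 units, close to those of all genes. Of 88 further genes of damage sensing and repair in 7 lists, 2 were higher and 0 lower in WT smoke (Atrip, the partner of ATR, 0.25 ± 0.047, and the excision repair factor Xpa, 0.30 ± 0.074). In mutant against WT smoke 0 of the 88 were called. In mutant smoke against room air Atrip and Xpa were higher, and Cdc25a (-0.33 ± 0.094), Dclre1c (-0.25 ± 0.071) and Fanca (-0.28 ± 0.085) were lower.

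Lists that share members or regulators with the p53 targets were read in the same way. The 14 ATF4 stress genes, 0 of them called lower, had medians of 0.16, 0.077 and 0.22 in the 3 comparisons. Above 0 were 12, 8 and 11 of them. The 29 measured p53 regulators and targets among the members had similar medians of 0.11, 0.087 and 0.20, with 26, 21 and 27 above 0. Of 14 ATF4 stress genes, 1 rose from room air to WT smoke, the cystine transporter Slc7a11 (2.84 ± 0.20; adjusted p = 1.3e-05), 0 were called between the smoke groups, and 5 were higher in mutant smoke than in room air. Of 16 immediate early genes, Ier3 (0.63 ± 0.078), Junb (0.66 ± 0.16) and Myc (0.29 ± 0.057) rose from room air to WT smoke. In the mutants Junb (-1.0 ± 0.16), Egr3 (-1.37 ± 0.23) and Ier3 (-0.31 ± 0.078) were lower than in WT smoke, the opposite direction to Cdkn1a, Gadd45g and Fas. In mutant smoke against room air, Myc (0.46 ± 0.057) and Ier3 (0.33 ± 0.078) were higher and Egr3 (-1.18 ± 0.23) was lower (list median 0.12). Of 20 proliferation genes, WT smoke against room air had 6 lower and 0 higher (median -0.43), led by Kif2c (-0.80 ± 0.17) and Kif20a (-0.52 ± 0.11). Between the smoke groups 1 was higher in the mutants (Bub1, 0.45 ± 0.12; list median 0.19), and 2 were lower in mutant smoke than in room air.

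Markers of other cells moved alongside. Of 8 measured alveolar macrophage markers, 2 were higher with WT smoke against room air, 5 with mutant against WT smoke and 8 with mutant smoke against room air, with 0 lower. Their summed linear level, in units of the 75th percentile of an array, was 97.8 to 108.6 in room air, 101.3 to 113.5 in WT smoke and 139.2 to 214.5 in mutant smoke, and none was at background: all 8 were well above it on 12 arrays. Siglecf stood 0.83 ± 0.083 log2 units (SE) higher in mutant than in WT smoke, and Mrc1 0.58 ± 0.093. The mutant arrays, on which Cdkn1a, Gadd45g and Fas were higher than in WT smoke, thus also had the higher macrophage sums, and the part of macrophages in that result was not tested. The macrophage sums of WT smoke and room air overlapped, although 2 of the 8 markers were called higher in WT smoke. The part of macrophages in the differences between these 2 groups was not tested either. Of 6 erythroid markers 1 was higher in WT smoke and 3 in mutant smoke, each against room air. In mutant against WT smoke 0 were called, while all 6 were above 0 (median 0.56) and 3 had an unadjusted p under 0.05. The erythroid sums were 684.9 to 1021.9 in mutant smoke, 527.5 to 662.3 in WT smoke and 610.4 to 970.1 in room air. The mutants thus lay above WT smoke and overlapped room air, and the part of blood in the results was not tested. Of 8 club and goblet cell markers 5 were lower in WT smoke than in room air, such as Muc5b (-1.63 ± 0.10). In mutant smoke 5 were lower than in room air and 2 lower than in WT smoke. Of 6 skeletal muscle markers 3 were higher in mutant than in WT smoke (median 0.46), and 1 was lower in each smoke group than in room air. Their summed levels were 2.16 to 2.69 in mutant smoke, 1.24 to 2.07 in WT smoke and 1.83 to 2.66 in room air. Of 7 cardiac muscle markers 0 were called in mutant against WT smoke, while all 7 were above 0 (median 0.39) and 5 had an unadjusted p under 0.05. The cardiac sums were 94.8 to 116.9 in mutant smoke, 61.6 to 89.3 in WT smoke and 86.9 to 116.4 in room air. On both muscle sums the mutants thus lay above WT smoke and overlapped room air, and their part in the results was not tested. Of 6 ciliated cell markers 3 were lower in mutant smoke than in room air and 1 in mutant than in WT smoke. Of 7 alveolar type 2 markers 3 were lower in WT smoke and 1 in mutant smoke, each against room air. Of 6 neutrophil markers 1 and 2 were lower in the same comparisons, and of 6 alveolar type 1 markers 2 were higher in mutant smoke than in room air. Of 6 endothelial markers 1 was lower in each comparison that involves the mutants, and of 8 T cell and 6 B cell markers 0 were called in limma, with 2 and 1 at an unadjusted p under 0.05. In whole lung a change in the number of cells of a type and in RNA per cell cannot be told apart.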

How the data were processed

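Lung RNA was labelled with Cy3 and read by the authors on Agilent arrays with Agilent Feature Extraction 9.5.3.1, per the file headers and the submitters' processing notes. Per the file headers, the deposited processed signal of a spot is a linear intensity after spatial and multiplicative detrending, with surrogate values for dim spots. The uncorrected spot means and local backgrounds, which the authors deposited as intensity too, served for the normexp alternative (offset 50). The deposited background and outlier flags are other values (0 or 1). The deposited values of the authors' own normalization are log2 intensity; on each array they followed the processed signal (r of at least 0.99952), with the same median of 6.79 in 12 columns.

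Spots (43379 without controls) were averaged to 41174 probes, and log2 signals were taken relative to the 75th percentile of each array. Probes well above background on at least 4 arrays and valued on at least 3 of each group were kept (30191), and the brightest stood for a gene. Symbols were updated through RefSeq accessions and synonyms (GRCm38.p6); probe positions are those of the files (mm8). Group means were fitted with limma 3.58.1 in R 4.3.3 (tables held with the data.table package, version 1.17.8) on all 12 arrays, two-sided, with no covariate. Across genes, r was 0.9941 to 0.9967 between arrays of a group and 0.9872 to 0.9949 between groups; the number of arrays limits the precision. The fit was tested on simulated data. Plots used matplotlib 3.10.9 in Python 3.11.15. Alternatives were other background, scaling, filter and probe choices, the slide or replicate number as a block, another variance moderation, fits on the groups compared, and leaving out each array.

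The members and lists were chosen with earlier results of these data known. Members given array by array are those called in a comparison, the 12 with the smallest p of the moderated F test, and Trp53, Mdm2, Cdkn1a, Cdkn2a, Gdf15, Gadd45a, Bax, Atm, Chek1 and Parp1; from other lists up to 4 genes with the smallest p are named.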

Additional observations from a re-analysis of the deposited data

Results flagged for a closer look

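In 5 of 129 sets of 4 arrays (43 members in 3 groups) 1 array stood far from the other 3, with a gap to the nearest of them, relative to the group's range, above Dixon's 95% critical value for 4 values. That is 3.88% of the sets, and chance alone flags about 1 in 20. Plk2 on WT room air replicate 1 stood at 1.99, the other 3 at 1.81 to 1.84. Bax on the same array stood at 1.24, the others at 1.45 to 1.49. Polk on WT room air replicate 2 stood at -0.84, the others at -0.69 to -0.67. On mutant smoke replicate 4, Chek1 stood at -5.19 (others -4.80 to -4.73) and Ddb2 at -0.16 (others -0.052 to -0.036). None of these 5 genes was called in a comparison.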

How the results depend on the processing

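The counts of members called were 4, 3 and 11 in WT smoke against room air, mutant against WT smoke and mutant smoke against room air. They fell to 0, 0 and 3 with normexp background correction, where all-gene calls fell from 470 higher and 488 lower to 40 and 13, from 528 and 693 to 11 and 15, and from 1442 and 1888 to 77 and 82. They were 5 in mutant against WT smoke with trended robust moderation, where all-gene calls rose to 657 higher and 865 lower. With no filter on dim probes the members called were 3, 2 and 10. All-gene calls there were 300 higher and 263 lower, 312 and 385, and 1019 and 1458, of 27592 genes. Leaving out 1 array gave 3 to 5, 2 to 4 and 8 to 13 members. For all genes these fits called 282 to 374 higher and 262 to 420 lower in WT smoke against room air. Between the smoke groups they called 289 to 484 higher and 290 to 688 lower. In mutant smoke against room air they called 956 to 1384 higher and 1292 to 1829 lower. With the replicate number as a block the counts were 3, 2 and 10, Fas losing its call against WT smoke (adjusted p = 0.0635). All-gene calls were then 342 higher and 329 lower, 426 and 656, and 1217 and 1782. Arrays numbered 1, 2 and 3 also share a slide across the groups and those numbered 4 do not; arrays of the same number did not deviate together in every pair (correlations of -0.097 to 0.22), and 4 of 12 pairs correlated best with their own number. Gdf15, Gadd45g and Cdkn1a kept their calls in mutant smoke against room air under all 19 settings. Gdf15, Gadd45g and Plk3 (WT smoke against room air) and Cdkn1a and Gadd45g (mutant against WT smoke) kept theirs under 18 of 19, all but normexp. Gdf15, Gadd45g, Cdkn1a and Plk3 each had only 1 kept probe. The mean over kept probes therefore left their differences unchanged and could not show whether their calls depend on the probe. Psrc1 lost its smoke call in 13 of 19, Fas its call against WT smoke in 11, and Perp its call against room air in 8. Over the named members 51 values fell below the threshold, 13 rose past it and 30 changed sign, all of the latter not called in the setting reported.

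Sign changes in WT smoke against room air were Atm with normexp (-0.068), Fas with the mean of all kept probes (-0.017), the slide block (-0.021) and single arrays left out (-0.052 to 0.074), and Trp53 with single arrays left out (-0.17 to 0.017). In mutant against WT smoke, Psrc1 changed with normexp (0.12), quantile normalization (0.0097), median scaling (0.010), the authors' deposited values (0.0081), the probe mean (0.015), the slide block (0.0091) and single arrays left out (-0.040 to 0.028). Sesn2 changed with normexp (-0.0021) and the probe mean (-0.079), Mdm2 with normexp (-0.047), the probe mean (-0.082) and single arrays left out (-0.0028 to 0.046). Bax changed with normexp (-0.057), quantile normalization (-0.0026), the authors' deposited values (-0.0059) and single arrays left out (-0.015 to 0.041), and Trp53 with the probe mean (-0.29) and single arrays left out (-0.098 to 0.097). In mutant smoke against room air, Chek1 (0.24) and Parp1 (-0.031) changed with normexp and Parp1 with the probe mean (-0.0095). The cause was not tested.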
